A study of Homo sapiens with 3 samples.

Results

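The heat shock proteins and the DNAJ family are the main molecular chaperones of human cells, proteins that bind unfolded polypeptides and help them fold, assemble or reach degradation. Their genes were chosen here by name: a symbol of the HSPA, HSPB, HSP90 or DNAJA, DNAJB and DNAJC series, HSPD1, HSPE1, HSPH1, the alpha crystallins CRYAA and CRYAB, or the heat shock factors HSF1, HSF2 and HSF4, provided that the best expressed entry of the symbol was a protein-coding RefSeq transcript. Of 27307 genes measured, 72 met this rule. The name pattern alone fitted 75, and HSPA14, DNAJC19 and HSPA7 were left out because their best expressed entry was a non-coding one. The pattern was narrower than the series and passed over HSPA1B, HSPA12B, DNAJC5B and DNAJC5G. These are not among the 72, although their best expressed entry was a protein-coding one. The 72 comprised 3 HSP90, 9 HSP70, 3 HSP110, 2 chaperonin, 10 small heat shock, 4 DNAJA, 13 DNAJB and 25 DNAJC genes and the 3 heat shock factors. The name did not always describe the function: the heat shock factors are transcription factors, and HSPB11 is known as a subunit of the ciliary transport machinery.

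The material was teratoma, a benign tumour of mixed tissues, grown from H1, an established human embryonic stem cell line. In every case 1000000 cells were implanted under the skin of SCID-beige mice, which lack a working adaptive immune system, and the growths were collected after 3 to 4 weeks. There was 1 group of 3 replicate libraries of polyadenylated RNA, named teratomas 1, 2 and 3, and no other group to compare them with. The labels do not state whether each library is a separate tumour, so the spread between libraries, which all SDs and p-values rest on, may be technical.

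HSP70 proteins bind and release clients in a cycle driven by ATP; J proteins, the DNAJ families, deliver the client and start the hydrolysis, and nucleotide exchange factors, among them the HSP110 proteins, reset the cycle. HSP90 finishes the folding of kinases and steroid receptors, HSPD1 and HSPE1 form the folding chamber of mitochondria, and small heat shock proteins hold unfolded clients without ATP. Under stress HSF1 binds heat shock elements in the promoters of these genes, while the endoplasmic reticulum members answer to the unfolded protein response through elements of their own.

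The libraries held 46243198, 45815401 and 43605458 reads, of which 187949, 190544 and 201942 fell on the 72 chaperone entries. Levels are the deposited RPKM, that is reads scaled to transcript length in kilobases and to library size, and values in a series are always in the order teratoma 1, 2, 3. The tumours held tissues of several kinds: all 14 neuron markers, all 12 fibroblast markers and all 11 liver and yolk sac markers reached 1 RPKM in every library. Teratoma 3 stood apart. Its summed neuron markers came to 2993 RPKM against 882 and 1122, its fibroblast markers to 579 against 2298 and 1899, and its liver and yolk sac markers to 383 against 1167 and 4219. In such bulk tissue, fewer cells of a type and less RNA per cell cannot be told apart.

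Together the 72 genes made up 0.5001, 0.5162 and 0.5696% of the summed RPKM. Of the 72, 60 (83.3%) were detected, meaning at least 1 RPKM in all 3 libraries, against 52.7% of all genes and 66.5% of genes whose best expressed entry was protein-coding. A further 6 stayed under 1 RPKM throughout, and 6 were on both sides of that level. The median level over the 72 was 7.84, 8.26 and 7.89 RPKM. The plot of levels by family shows each gene in each library.

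**Figure D1:**
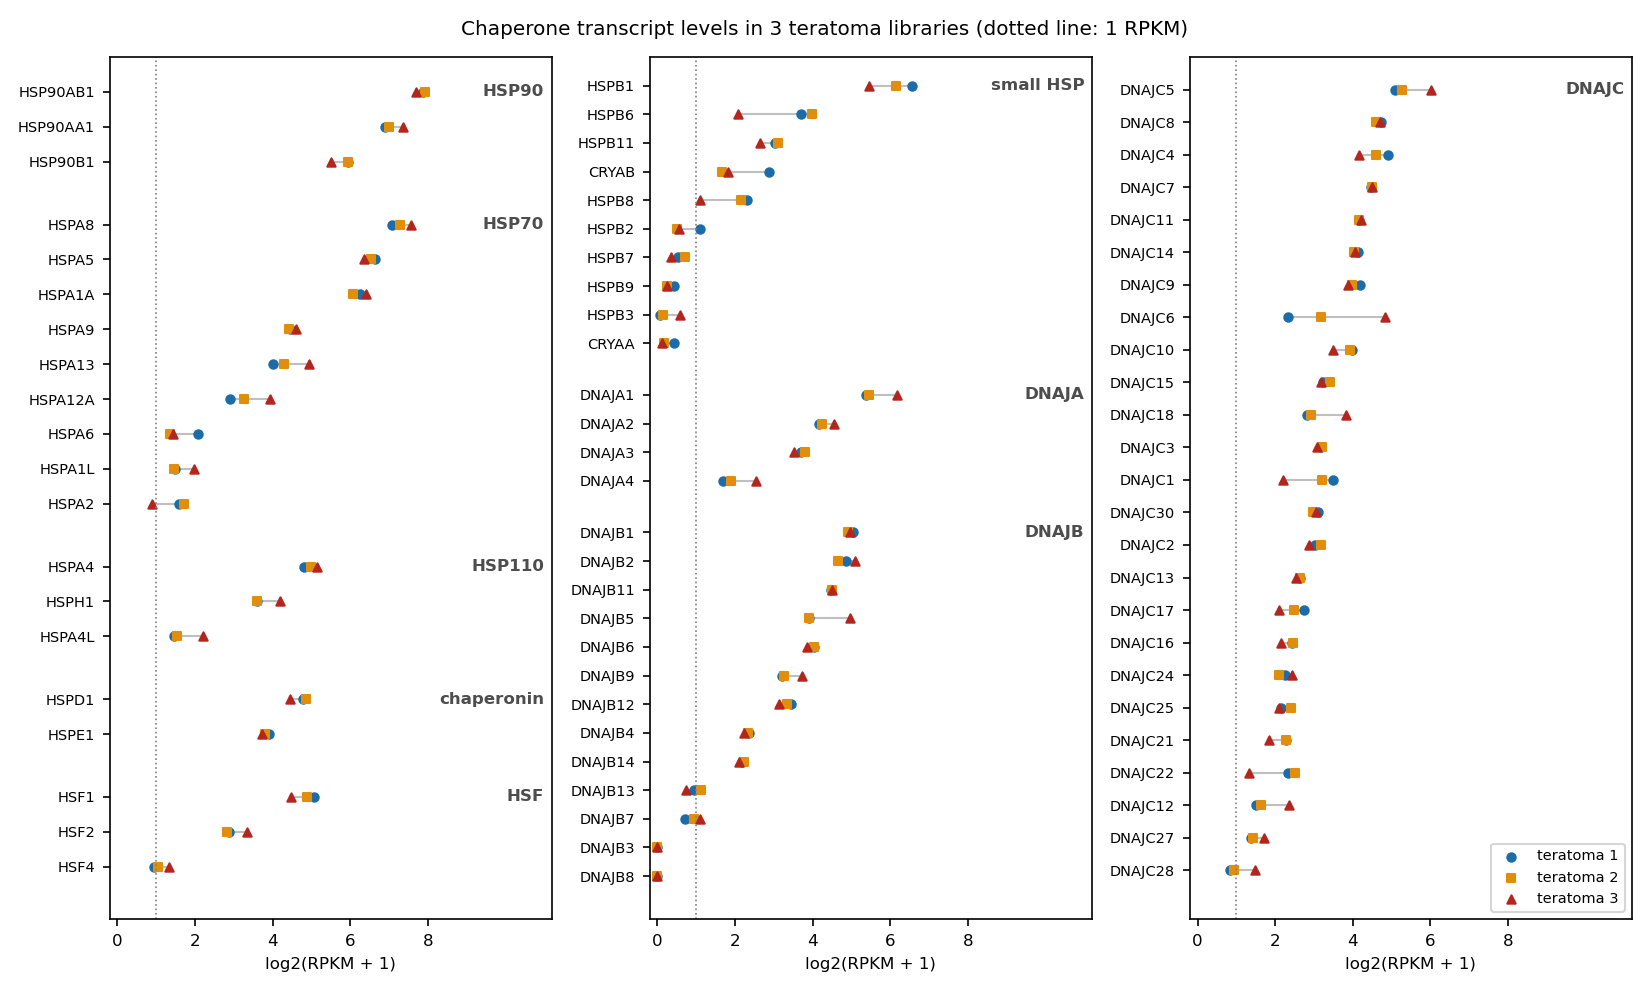
Level of each of the 72 chaperone genes as log2(RPKM + 1), by family, with 1 symbol per library and a dotted line at 1 RPKM. HSP90AB1, HSPA8 and HSP90AA1 lie furthest to the right, DNAJB3 and DNAJB8 lie at 0, and DNAJC6 has the widest span, from 4.06 to 27.5 RPKM.

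The promoters of several of the genes hold the known letters of stress elements, and these stretches are printed here. They were read from RefSeq, build GRCh38.p14, in windows of 300 bases, 250 before to 50 after the start site, which existed for 64 of the 72 genes (84 windows, since some genes have several start sites). A heat shock element is built from units of GAA and its complement TTC, each 2 bases from the next; pairs were searched in both orders, which covers both strands, and a match of 3 alternating units also contains pairs. Such a pair was present in 22 of 84 windows (26.2%), against 13.5% of the 35116 windows of all genes. Runs of 3 units were present in 7 windows (8.33%), against 0.49% of all windows, those of HSP90AA1, HSP90AB1, HSPA6, HSPA8, HSPD1, DNAJA1 and DNAJB6; that of DNAJA1 lies after the start site and is not printed. These are matches of letters, given as a description with no test, and no binding was measured. The printed stretches lie before the start site of their own window, but those of HSP90AA1, HSPA8 and HSPD1 overlap annotated exons. In the stretches that follow, each 29 bases long and written 5′ to 3′ on the strand of the gene, capitals mark the GAA and TTC units.
HSP90AA1 (chr14:102087112-102087140, minus strand): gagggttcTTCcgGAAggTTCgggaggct
HSP90AB1, distal (chr6:44247770-44247798, plus strand): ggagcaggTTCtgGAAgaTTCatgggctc
HSP90AB1, proximal (chr6:44247823-44247851, plus strand): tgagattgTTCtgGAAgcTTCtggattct
HSPA8, distal (chr11:123062346-123062374, minus strand): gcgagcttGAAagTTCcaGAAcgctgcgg
HSPA8, proximal (chr11:123062171-123062199, minus strand): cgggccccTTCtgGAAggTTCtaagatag
HSPD1 (chr2:197500062-197500090, minus strand): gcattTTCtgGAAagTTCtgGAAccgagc
DNAJB6 (chr7:157336865-157336893, plus strand): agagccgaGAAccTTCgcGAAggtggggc
HSPA1A, pair (chr6:31815427-31815455, plus strand): gaaaaccctgGAAtaTTCccgacctggca
DNAJB1, pair (chr19:14518456-14518484, minus strand): gggcggggcgGAAggTTCtggagggggct
HSPB1, pair (chr7:76302481-76302509, plus strand): cttaacgagaGAAggTTCcagatgagggc

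HSPA6 encodes an HSP70 that is made almost only under stress, and its 250 bases upstream of the start site (chr1:161524290-161524539, plus strand, GRCh38.p14) are given whole because they hold a run of 3 units and a separate pair, both in capitals. HSPA5 encodes BiP, the HSP70 of the endoplasmic reticulum. Its 250 upstream bases (chr9:125241344-125241593, minus strand) hold the endoplasmic reticulum stress element, CCAAT and CCACG 9 bases apart, searched on both strands and marked in capitals. Only 27 of all 35116 windows (0.0769%) held that element, and among the chaperone genes HSPA5 and HSP90B1 did. The printed stretches of HSP90B1 overlap annotated exons.
HSPA6: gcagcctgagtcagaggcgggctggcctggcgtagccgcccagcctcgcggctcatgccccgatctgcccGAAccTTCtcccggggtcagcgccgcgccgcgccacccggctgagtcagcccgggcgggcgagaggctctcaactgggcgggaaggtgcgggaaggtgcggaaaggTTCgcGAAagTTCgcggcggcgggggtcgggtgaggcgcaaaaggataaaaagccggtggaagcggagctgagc
HSPA5: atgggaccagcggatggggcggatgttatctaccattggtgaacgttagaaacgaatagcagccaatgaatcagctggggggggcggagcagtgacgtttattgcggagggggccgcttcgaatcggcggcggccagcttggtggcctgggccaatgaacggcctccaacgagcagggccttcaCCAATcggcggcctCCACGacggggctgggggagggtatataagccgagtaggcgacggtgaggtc
HSP90B1, first site (chr12:103930211-103930239, plus strand): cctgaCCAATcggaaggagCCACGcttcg
HSP90B1, second site, element on the opposite strand (chr12:103930316-103930344, plus strand): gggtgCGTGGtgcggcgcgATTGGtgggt

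The HSP90 genes had summed levels of 414, 431 and 412 RPKM, or 27.8, 29.1 and 26.2% of the chaperone total. This was the highest sum of the 9 families in teratomas 1 and 2, and below that of the HSP70 genes in teratoma 3. The order depends on the name pattern. It left out the HSP70 gene HSPA1B, listed at 76.9, 68.3 and 77.9 RPKM, and with HSPA1B added the HSP70 sum would be the higher in every library. HSP90AB1, the constitutive cytosolic HSP90, stood at 235, 243 and 205 RPKM and ranked 91 among the 27307 genes by mean level. HSP90AA1, its stress-inducible partner, stood at 118, 128 and 163 RPKM. HSP90AB1 was thus lowest, and HSP90AA1 highest, in teratoma 3. HSP90B1, the HSP90 of the endoplasmic reticulum known as GRP94, stood at 60.6, 60.5 and 44.6 RPKM, lowest in teratoma 3. Its value is uncertain, since the near-identical pseudogene HSP90B2P was listed at 94.1, 89.4 and 70.3 RPKM and the authors' counting could have divided reads between them.

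Within every library the level of HSP90AB1 exceeded that of HSP90AA1, by 2.00-, 1.90- and 1.26-fold. The difference in log2(RPKM + 1) was 0.75 ± 0.36 (SD, n = 3). For this and each of the other 6 pairs of genes described below, the first named was the higher in 3 of 3 libraries and an exact permutation test that flips the signs (two-sided) gave p = 0.25, also after Benjamini-Hochberg adjustment over the 7 pairs. That is the smallest p that 3 libraries allow, so no pair could pass a threshold of 0.05. Summing all entries of a gene gave differences of 2.13 for this pair, 2.06 for HSPA8 minus HSPA1A, 1.84 for HSPD1 minus HSPE1 and 2.27 for HSPB1 minus CRYAB. Such a sum counts a shared read again for each entry, so it also reflects the number of entries. HSP90AB1 had 5 and HSP90AA1 had 2, for example, and the sums cannot tell this from a difference in level. The plot of paired genes sets the 3 differences of each pair beside their mean.

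**Figure D2:**
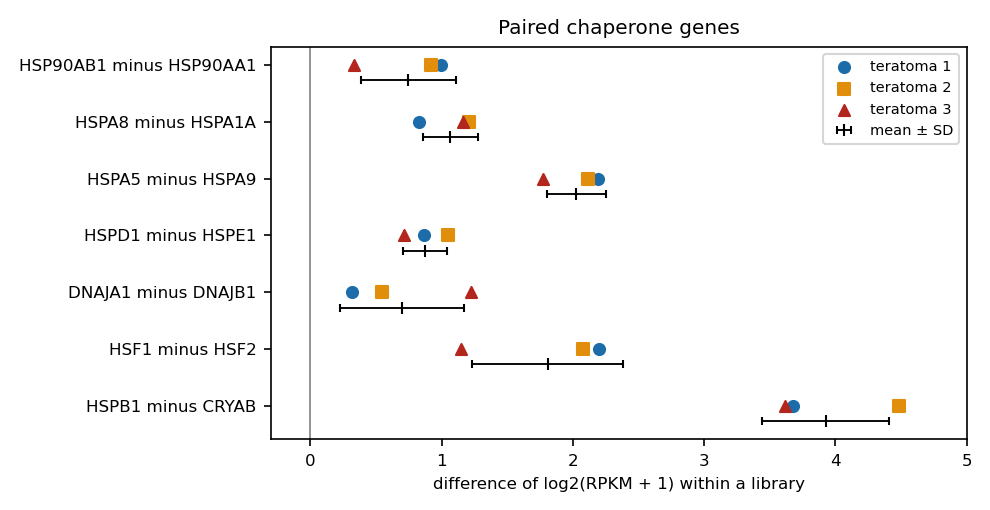
Difference of log2(RPKM + 1) between the genes of each of the 7 pairs, with 1 symbol per library and the mean ± SD below it. All points lie above 0, and the points of teratoma 3 lie, for example, lowest for HSP90AB1 minus HSP90AA1 (0.33) and HSF1 minus HSF2 (1.15) and highest for DNAJA1 minus DNAJB1 (1.23).

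HSP70 genes summed to 356, 366 and 427 RPKM, and 8 of the 9 were detected. HSPA8, the constitutive cytosolic HSC70, led them at 134, 154 and 189 RPKM, rank 156 of all genes by mean. HSPA5 stood at 98.3, 92.5 and 81.4 RPKM. HSPA1A, the classical heat-inducible HSP70, stood at 74.9, 65.8 and 83.8 RPKM. HSPA8 was highest and HSPA5 lowest in teratoma 3, while HSPA1A had no library far from the others. The entry of HSPA1A has 5 placements in the genome and its near-identical copy HSPA1B was listed at 76.9, 68.3 and 77.9 RPKM, so the share of each copy is uncertain.

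HSPA8 exceeded the HSPA1A entry in each library, with a log2 difference of 1.07 ± 0.21 (SD, n = 3). This order depends on how reads were divided between the copies: HSPA1A and HSPA1B added together came to 151.8, 134 and 162 RPKM. Against that sum, an alternative added after the values were seen, HSPA8 was the higher in 2 of 3 libraries and the log2 difference was 0.08 ± 0.23 (SD, n = 3; exact permutation p = 0.5). HSPA9, the mitochondrial HSP70 known as mortalin, stood at 20.8, 20.6 and 23.2 RPKM. HSPA5 was above HSPA9 by 4.74-, 4.49- and 3.52-fold, a log2 difference of 2.02 ± 0.22 (SD, n = 3). The endoplasmic reticulum form was thus the more abundant by more than the spread of the 3 differences.

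Less abundant HSP70 genes differed more between libraries. HSPA13, a microsomal HSP70 that lacks the client-binding domain, stood at 15.1, 18.8 and 29.6 RPKM. HSPA12A, a distant relative of the family, stood at 6.47, 8.62 and 14.4 RPKM, with the highest library 2.23-fold the lowest. Both were highest in teratoma 3. HSPA6 went another way, at 3.26, 1.57 and 1.71 RPKM, and was highest in teratoma 1. Its close copy HSPA7, left out of the 72, was listed at 0.685, 0.324 and 0.230 RPKM and also lay highest there. HSPA2, an HSP70 best known from the testis, was at 2.02, 2.29 and 0.861 RPKM and was under the detection level in teratoma 3 only. HSPA1L, whose entry also has 5 placements, was at 1.81, 1.76 and 2.92 RPKM.

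All 3 HSP110 genes, which act as nucleotide exchange factors of HSP70, were highest in teratoma 3. HSPA4 stood at 27.2, 30.7 and 34.6 RPKM. HSPH1, the inducible form, stood at 11.18, 11.18 and 17.2 RPKM, with teratomas 1 and 2 alike and teratoma 3 1.54-fold above the lowest. HSPA4L was at 1.75, 1.90 and 3.63 RPKM.

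The mitochondrial chaperonin genes both had their lowest value in teratoma 3, but for HSPE1 this order lay within counting error. HSPD1, or HSP60, stood at 26.6, 27.9 and 20.7 RPKM, and its lid HSPE1, or HSP10, at 14.1, 13.0 and 12.2 RPKM. The exact Poisson intervals of HSPE1 overlapped, at 13.03 to 15.27, 11.92 to 14.08 and 11.18 to 13.34 RPKM. That of HSPD1 ended at 21.61 RPKM in teratoma 3 and began at 25.65 and 26.87 RPKM in teratomas 1 and 2. HSPD1 exceeded HSPE1 by a log2 difference of 0.88 ± 0.17 (SD, n = 3). In the RefSeq promoter table the start sites of this pair lie head to head, with 104 bases between them on chromosome 2, and the run of units printed above belongs to the window of another start site of HSPD1. A readthrough transcript, HSPE1-MOB4, was listed at 7.90, 8.33 and 10.5 RPKM and may share reads with HSPE1.

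Heat shock factor genes were led by HSF1, the main activator of the heat shock response, at 32.5, 28.8 and 21.3 RPKM. HSF2, which forms trimers with HSF1, stood at 6.29, 6.05 and 9.09 RPKM. The ratio of HSF1 to HSF2 was 5.16, 4.76 and 2.35, lowest in teratoma 3, where HSF1 was lowest and HSF2 highest. The log2 difference was 1.81 ± 0.58 (SD, n = 3). It rests on the best entry of HSF2, whose 3 entries ranged from 3.29 to 7.14 RPKM on average. It came to 0.63 when all entries of a gene were summed, with HSF1 no longer the higher in every library (exact permutation p = 0.5). That sum sets 3 entries of HSF2 against 1 of HSF1 and counts shared reads again for each entry, so it does not compare levels alone. HSF4, the heat shock factor of the lens, was near the detection level at 0.929, 1.08 and 1.51 RPKM. No lens marker of 9 was detected, and BFSP2 was at 0 in all libraries.

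Of the 9 families, the small heat shock genes had the widest relative spread of summed level. Their summed level was 125, 100.2 and 56.2 RPKM, which is 8.44, 6.75 and 3.58% of the chaperone total. HSPB1, or HSP27, made up most of it, at 93.6, 70.6 and 42.6 RPKM. HSPB6, or HSP20, abundant in smooth, cardiac and skeletal muscle, stood at 11.95, 14.9 and 3.20 RPKM. HSPB8, a partner of the exchange factor BAG3 in clearing damaged muscle proteins, stood at 3.91, 3.47 and 1.16 RPKM. These 3 were lowest in teratoma 3, whose level was 2.20-, 4.64- and 3.38-fold under that of the highest library. HSPB11, at 7.21, 7.60 and 5.25 RPKM, was also lowest there, with a smaller difference.

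CRYAB, the alpha B crystallin, followed a different pattern, at 6.38, 2.19 and 2.55 RPKM, highest in teratoma 1. Its counting interval there (exact Poisson, 95%) was 5.66 to 7.18 RPKM, apart from 1.78 to 2.68 and 2.08 to 3.09 in the others. HSPB2, the neighbour of CRYAB in the genome, was at 1.16, 0.415 and 0.464 RPKM, from 45, 16 and 17 reads, and likewise highest in teratoma 1. HSPB1 exceeded CRYAB by a log2 difference of 3.93 ± 0.48 (SD, n = 3), the widest of the 7 pairs.

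The other small heat shock genes were barely present. HSPB7, a form of heart and skeletal muscle, was at 0.434, 0.649 and 0.270 RPKM. HSPB3, another muscle form, had 2, 4 and 17 reads, or 0.0552, 0.111 and 0.497 RPKM. HSPB9, known from the testis, was at 0.351, 0.177 and 0.186 RPKM, from 10, 5 and 5 reads. CRYAA, the alpha A crystallin of the lens, had 18, 6 and 4 reads, or 0.340, 0.114 and 0.0802 RPKM. At such counts the intervals of the highest and lowest library overlapped for HSPB9 and CRYAA, while those of HSPB3 ended at 0.199 RPKM in teratoma 1 and began at 0.290 in teratoma 3.

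Most fibroblast markers and some muscle markers were low in teratoma 3, as were HSPB1, HSPB6 and HSPB8. Of 14 muscle markers 5 were detected, with MYL2 at 0 in all libraries, and the list summed to 77.2, 89.7 and 45.7 RPKM. The sum was lowest in teratoma 3, as was that of the fibroblast list given above, but the muscle markers were divided. There 4 were at least 0.5 in log2(RPKM + 1) below both others, TAGLN, ACTA2, CNN1 and MYH11. As far above were 3, MYOG, MYH3 and TNNT1. TAGLN (40.5, 37.4 and 13.7 RPKM) and ACTA2 (13.6, 26.7 and 6.10 RPKM) had the highest means of the list and so weighed most in its sum. The part of either tissue in the levels of HSPB1, HSPB6 and HSPB8 was not tested.

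The DNAJA genes, J proteins with a zinc-binding region, summed to 71.6, 76.3 and 109 RPKM. DNAJA1, a cytosolic partner of HSPA8, stood at 40.3, 42.8 and 71.3 RPKM, with teratoma 3 1.77-fold above the lowest. DNAJA2, the other abundant cytosolic form, was at 17.0, 17.8 and 22.5 RPKM. DNAJA4, the least abundant, was at 2.21, 2.69 and 4.84 RPKM. These were all highest in teratoma 3, and the mitochondrial DNAJA3 was lowest there, at 12.1, 13.0 and 10.4 RPKM.

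Among the DNAJB genes 9 of 13 were detected. DNAJB1, the main inducible HSP40, stood at 32.1, 29.1 and 29.9 RPKM, within 1.11-fold in all libraries. DNAJA1 exceeded DNAJB1 by a log2 difference of 0.70 ± 0.47 (SD, n = 3), and the RPKM ratio was 1.25, 1.47 and 2.38. With entries summed this difference was 0.15 and DNAJA1 was no longer the higher in every library (exact permutation p = 0.75). That sum sets 2 entries of DNAJA1 against 3 of DNAJB1 and counts shared reads again for each entry, so it does not compare levels alone. DNAJB2, a J protein abundant in neurons that binds ubiquitinated clients, was at 28.04, 24.4 and 33.3 RPKM. DNAJB11, the soluble J protein of the endoplasmic reticulum, had the smallest spread of the abundant genes, at 21.3, 21.6 and 21.4 RPKM. DNAJB5 was the DNAJB gene with the widest spread, at 14.0, 14.0 and 30.3 RPKM, with teratoma 3 alone standing high.

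DNAJB13, a J protein of sperm tails and motile cilia, was near the detection level at 0.923, 1.16 and 0.673 RPKM. Of 10 motile cilium markers 6 were detected, and the list summed to 53.3, 49.9 and 33.0 RPKM. DNAJB7 was also near that level, at 0.638, 0.906 and 1.16 RPKM. DNAJB3 and DNAJB8, the latter known from the testis, had 0 reads in every library, which allows up to 0.0543 RPKM for DNAJB3 and 0.0278 RPKM for DNAJB8, the worth of 3 reads in teratoma 3.

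The DNAJC genes share only the J domain and serve many processes, and 24 of 25 were detected. DNAJC5, the cysteine string protein of synaptic vesicles, led them at 32.8, 37.6 and 64.2 RPKM. DNAJC8, a protein associated with the spliceosome, was even across libraries at 25.6, 23.2 and 24.97 RPKM. DNAJC4 stood at 28.98, 23.1 and 16.9 RPKM. DNAJC5 was highest and DNAJC4 lowest in teratoma 3.

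DNAJC6, or auxilin, which strips clathrin from vesicles in neurons, had the widest range of log2(RPKM + 1) of all 72 genes. It stood at 4.06, 8.10 and 27.5 RPKM, and the highest library was 6.79-fold the lowest; the plain ratio was larger, at 9.01-fold, for HSPB3, whose lowest library had 2 reads. Its counting intervals were 3.82 to 4.31, 7.76 to 8.45 and 26.9 to 28.2 RPKM, so that no library overlapped another. DNAJC18 was at 6.07, 6.54 and 13.2 RPKM. DNAJC12, a J protein that serves the aromatic amino acid hydroxylases, was at 1.84, 2.13 and 4.13 RPKM. In both, teratoma 3 was high and the other libraries were close to each other. DNAJC28, near the detection level, was at 0.795, 0.906 and 1.81 RPKM.

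In the opposite direction, DNAJC1, a membrane J protein of the endoplasmic reticulum that binds ribosomes, was at 10.3, 8.24 and 3.62 RPKM. DNAJC22, a membrane J protein, was at 4.03, 4.69 and 1.52 RPKM. Both were lowest in teratoma 3, by 2.85- and 3.10-fold from the highest library.

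Several DNAJC genes were nearly level. DNAJC7, a J protein with tetratricopeptide repeats that links HSP70 and HSP90, was at 21.1, 21.8 and 21.7 RPKM. DNAJC11, a mitochondrial membrane protein, was at 16.8, 16.8 and 17.4 RPKM. DNAJC14, a membrane J protein, was at 16.6, 15.5 and 15.8 RPKM, and DNAJC13, a protein of endosomes, at 5.24, 5.19 and 4.77 RPKM. With DNAJB11 these had the smallest ranges among genes whose mean reached 5 RPKM, and the counting intervals of their highest and lowest library overlapped.

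**Figure D3:**
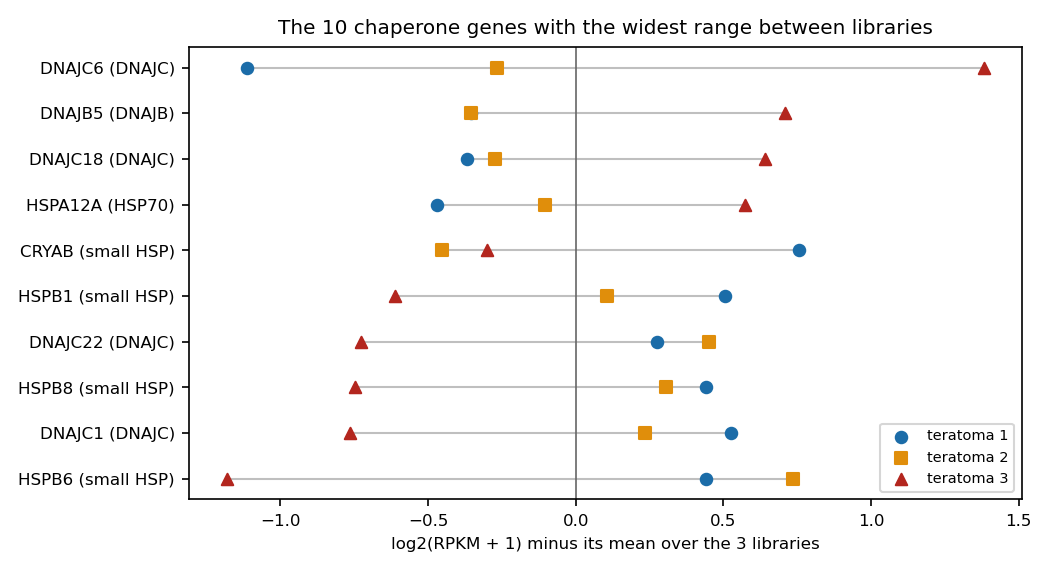
The 10 chaperone genes with the widest range, each as log2(RPKM + 1) minus its mean over the 3 libraries, with 1 symbol per library and the family in brackets. Teratoma 3 is the highest library for DNAJC6, DNAJB5, DNAJC18 and HSPA12A and the lowest for HSPB1, DNAJC22, HSPB8, DNAJC1 and HSPB6, while CRYAB is highest in teratoma 1.

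Counted over the whole set, 10 of the 72 genes (13.9%) had a highest and a lowest library at least 1 apart in log2(RPKM + 1), a 2-fold difference. They were DNAJC6, HSPB6, DNAJC1, CRYAB, HSPB8, DNAJC22, HSPB1, DNAJB5, HSPA12A and DNAJC18, which include 4 of the 10 small heat shock genes. The same held for 12.1% of all genes and 15.5% of those with a protein-coding best entry, so the share among chaperone genes was near the background. Among genes whose mean reached 1 RPKM it was 15.9% of the chaperone genes. That compares with 20% of all such genes and 21.0% of those with a protein-coding best entry. The count rested on teratoma 3, as did that of all genes. Without that library 1 gene remained past that difference, CRYAB (1.39%, against 1.59% of all genes). Without teratoma 1 there were 5 (6.94%, against 7.51%). The count was 20 with a pseudocount of 0.1 (27.8%, against 25.4%) and 3 with a pseudocount of 5 (4.17%, against 4.57%). With libraries rescaled to 1000000 it was 19 (26.4%, against 19.2%), where the share was above the background.

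The median range of the 60 detected chaperone genes was 0.43, equal at this precision to the 0.43 of the 12407 detected genes with a protein-coding best entry. The cumulative plot of ranges shows the curves of both sets close together up to 1.

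**Figure D4:**
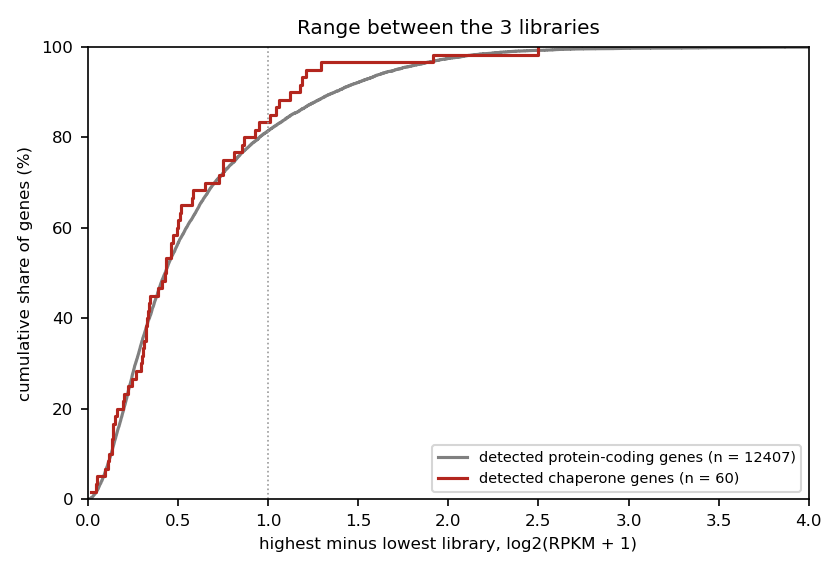
Cumulative share of genes against the difference between the highest and the lowest library in log2(RPKM + 1), for the 60 detected chaperone genes and the 12407 detected genes with a protein-coding best entry. The curves run together up to the dotted line at 1, and both have a median of 0.43.

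Teratoma 3 was the library that stood apart for the chaperone genes. In it 12 genes (16.7%) were at least 0.5 in log2(RPKM + 1) above both others, against 7.96% of all genes and 9.99% of those with a protein-coding best entry. Among genes whose mean reached 1 RPKM the shares were closer, 19% of the chaperone genes against 12.9% of all. These were HSPA12A, HSPA13, HSPA4L, HSPH1, DNAJA1, DNAJA4, DNAJB5, DNAJC5, DNAJC6, DNAJC12, DNAJC18 and DNAJC28. A further 6 (8.33%) were as far below both others, HSPA2, HSPB1, HSPB6, HSPB8, DNAJC1 and DNAJC22, against 11.1% and 14.3%. Among genes whose mean reached 1 RPKM these 6 were 9.52% of the chaperone genes, against 18.2% of all. With a pseudocount of 5 the counts were 7 above (9.72%, against 4.35% of all genes) and 3 below (4.17%, against 5.22%). Without teratoma 2 there were 12 below, 16.7% against 15.5% of all genes. There teratoma 3 is compared with teratoma 1 alone, a looser rule, and under it the share of chaperone genes on that side was not lower.

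The other libraries stood apart for few. Teratoma 1 was above both others for HSPA6, CRYAB and HSPB2 (4.17%, against 2.31% of all genes) and below both for DNAJC6 (1.39%, against 1.92%). Teratoma 2 was above both others for 0 of the 72 (background 1.92%) and below both for 0 (background 0.341%).

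The 12 genes above had been picked for being high in teratoma 3, as 7.96% of all genes were. Neuron markers were high there too, which given that choice shows no link. All 14 were detected, none was at 0 in any library, and all 14 were at least 0.5 above both other libraries there. TUBB3, the tubulin of neurons, was at 434.5, 510 and 1216 RPKM and STMN2, a regulator of microtubules in axons, at 103, 137 and 440 RPKM. Their part in the levels of DNAJC6 and DNAJC5 was not tested.

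**Figure D5:**
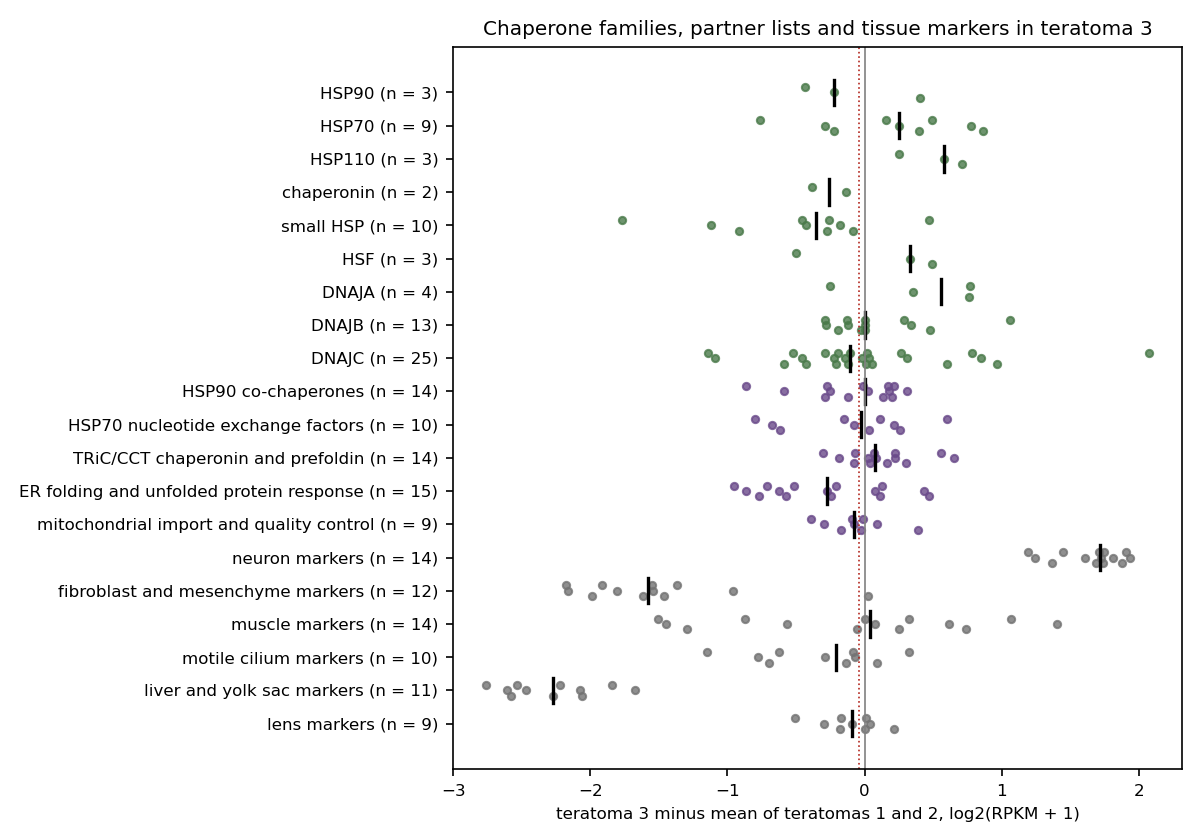
Level in teratoma 3 minus the mean of teratomas 1 and 2 in log2(RPKM + 1) for each gene of the chaperone families (green), partner lists (violet) and tissue markers (grey), with the median as a black bar and the median of all detected genes, -0.04, as a dotted line. HSP110 genes lie to the right of 0 and most small heat shock genes to the left, and the neuron and the liver and yolk sac markers lie further out than any family's median.

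Genes with a run of 3 heat shock units in the promoter window did not move as one in teratoma 3. Relative to the mean of the other libraries, the log2 level was higher by 0.77 for DNAJA1, 0.40 for HSPA8 and 0.40 for HSP90AA1. The log2 difference was -0.22 for HSP90AB1, -0.38 for HSPD1, -0.20 for DNAJB6 and -0.29 for HSPA6. That of DNAJB6 turned positive with entries summed. For the holders of the endoplasmic reticulum element it was -0.23 for HSPA5 and -0.43 for HSP90B1.

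Of the 7 chaperone genes assigned to the endoplasmic reticulum, 5 were lowest in teratoma 3 and 1 was highest there, against 32 and 28 of all 72. The same count was not made over all genes. HSPA5, HSP90B1 and DNAJC1 were lowest in teratoma 3, as given above, and so was DNAJC3, at 8.12, 8.28 and 7.45 RPKM. The counting intervals of DNAJC3 in teratomas 1 and 3 overlapped. The microsomal HSPA13, not counted among the 7, was highest there. The J proteins DNAJB12, DNAJB14, DNAJC14, DNAJC16 and DNAJC18 were not counted among the 7 either. Of these, DNAJB12, DNAJB14 and DNAJC16 were lowest in teratoma 3 and DNAJC18 was highest in it. DNAJB9, a J protein induced by the unfolded protein response, was also highest there, at 8.33, 8.59 and 12.2 RPKM. DNAJC10, a J protein with disulphide reductase activity, was at 14.7, 14.4 and 10.3 RPKM, lowest in teratoma 3.

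The other folding genes of the endoplasmic reticulum were a list of 15, all detected. Of these, 7 were at least 0.5 below both other libraries in teratoma 3 (CALR, P4HB, PDIA3, PDIA4, PDIA6, XBP1 and SDF2L1) and 0 were as far above. For this list and those that follow, the background was 11.1% of all genes below, 7.96% above and 12.1% varying 2-fold. Among genes whose mean reached 1 RPKM it was 18.2, 12.9 and 20%. The list summed to 1195.9, 1157.7 and 818.5 RPKM. CALR, the lectin chaperone calreticulin, stood at 295, 275 and 184 RPKM. P4HB, a protein disulphide isomerase that is also a subunit of collagen prolyl hydroxylase, stood at 273, 288 and 144.5 RPKM. XBP1, a transcription factor of the unfolded protein response, was at 61.6, 51.9 and 30.6 RPKM. The median range of the list was 0.52, above the 0.42 of all detected genes, and 0 of the 15 varied 2-fold. The fibroblast and the liver and yolk sac markers were lowest in the same library, and their part was not tested.

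Co-chaperones of HSP90 were all detected, 14 of 14, and summed to 342, 324 and 320 RPKM. STUB1, the ubiquitin ligase CHIP, stood at 66.3, 61.0 and 53.2 RPKM and PTGES3, or p23, at 55.1, 56.2 and 62.9 RPKM. FKBP5, an immunophilin induced by steroid hormones, was the 1 member that varied 2-fold, at 4.64, 3.17 and 1.67 RPKM. UNC45A, the myosin co-chaperone of most tissues, was at 21.7, 18.3 and 13.0 RPKM, also lowest in teratoma 3.

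The 10 nucleotide exchange factors of HSP70 were all detected and none varied 2-fold. HYOU1, the large exchange factor of the endoplasmic reticulum, was at 35.2, 39.2 and 37.9 RPKM, and HSPBP1 at 41.2, 34.9 and 35.9 RPKM. BAG3, the partner of HSPB8, was at 9.63, 9.25 and 4.99 RPKM and SIL1, an exchange factor of HSPA5, at 13.0, 11.9 and 7.42 RPKM. BAG3, SIL1 and BAG2 were at least 0.5 below both other libraries in teratoma 3, and GRPEL2, a mitochondrial exchange factor, was as far above.

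The cytosolic chaperonin TRiC and its delivery complex prefoldin were even across libraries. All 14 genes were detected, 0 varied 2-fold and the median range was 0.22. PFDN5 stood at 103, 82.3 and 74.2 RPKM and CCT7 at 87.7, 81.8 and 80.5 RPKM. The prefoldin subunits VBP1, at 22.8, 28.1 and 40.4 RPKM, and PFDN2, at 31.9, 30.7 and 46.5 RPKM, were the members at least 0.5 above both others in teratoma 3.

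Of the 10 genes listed for mitochondrial import and quality control, 9 had an entry under the symbol used, all detected and none varying 2-fold. TOMM20, a receptor of the outer membrane, stood at 52.2, 69.0 and 79.1 RPKM and was lowest in teratoma 1. TRAP1, the mitochondrial HSP90, was at 42.3, 44.1 and 35.1 RPKM. SPG7, a subunit of an inner membrane protease, was at 22.2, 21.1 and 16.2 RPKM. TRAP1 and SPG7 were lowest in teratoma 3, as was HSPD1, and as was HSPE1 within counting error. Of the 7 chaperone genes assigned to the mitochondrion, 4 were lowest in teratoma 3 and 2 were highest there, against 32 and 28 of all 72. The same count was not made over all genes. Among the 7, the counting intervals of the highest and lowest library overlapped for HSPE1 and DNAJC11. Those of DNAJC15 overlapped in teratomas 1 and 3.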

How the data were processed

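The 72 genes and all lists were chosen with earlier results of these data known. RNA-seq of 3 libraries was analysed from 1 table per library. The deposited RPKM values equal the deposited read counts divided by transcript length and by 1 library total, and the other deposited columns give length and number of placements. Bowtie2 and hg19 are named per the submitters' processing notes; which counting tool and strand setting were used, and whether mouse reads were removed, is not given in the sources used here, so antisense or overlapping genes, and mouse reads that align to human transcripts, could not be set apart. Reads shared by transcripts were counted for several of the 59443 entries, so the entry with the highest mean RPKM stood for each symbol; 34 of the 72 genes had several entries. No columns were left unmapped.

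Levels were compared as log2(RPKM + 1), with a pseudocount of 1, which understates differences of low genes. Detection required 1 RPKM in all 3 libraries. A gene varied when its libraries spanned at least 1, and a library stood above or below when at least 0.5 from both others. Only the 7 pairs within libraries were tested. Exact Poisson 95% intervals and the limit of 3 reads for a count of 0 (0.0259, 0.0262 and 0.0275 RPKM at the median length of 2500 bases) cover counting error only. Values were printed for genes of the 7 pairs, the 3 most abundant of each family, the 10 widest and 5 smallest ranges (mean of at least 5 RPKM), genes under 1 RPKM throughout or with a mean within 0.2 of it, and in each partner list the 2 most abundant and the 2 widest in range; other genes with values were chosen after these were seen. Alternatives were the detection level, pseudocount, a filter on low means, summed entries, 2 library scalings and each library left out. Promoter sequences are from RefSeq (GRCh38.p14); no coordinates of the hg19 tables were used. Python 3.11.15, numpy 2.4.6, pandas 2.3.3, scipy 1.17.1 and matplotlib 3.10.9 were used, and the counting and test code was tested on simulated data.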

Additional observations from a re-analysis of the deposited data

How the results depend on the processing

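The number of chaperone genes varying 2-fold was 10 as reported. It was 20 with a pseudocount of 0.1 (27.8%, against 25.4% of all genes) and 3 with a pseudocount of 5 (4.17%, against 4.57%). With libraries rescaled to 1000000 it was 19 (26.4%, against 19.2%), further above the share of all genes than with the deposited values. It ranged from 1 to 9 with each library left out, lowest without teratoma 3 (1.59% of all genes), where fewer libraries are spanned. The number highest in teratoma 3 was 7 with a pseudocount of 5, and the number lowest there was 3; the latter ranged from 6 to 12 with teratoma 1 or 2 left out, being 12 without teratoma 2, where 1 library is compared in place of 2. For the rescaling the cause was not tested. Of 33 alternative counts 25 were within 1.5 times the reported one. All 50 alternative values of the 7 pairs kept their direction on average, though that of HSPA8 minus HSPA1A was 0.08 with HSPA1B added to HSPA1A. Rescaling moved the median level of detected genes by 1.68 on the log2 scale and summing entries by 0.84; the median of teratoma 3 minus the others moved from -0.04 to 0.04 with rescaling. Under these scalings the side on which teratoma 3 lay turned for 3 of 72 genes, DNAJB1 and DNAJC14 under the library scalings and DNAJB6 with entries summed. No pairing of samples between groups was possible because the 3 libraries form 1 group. The 7 pairs compare genes within a library.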

Other observations

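Some genes with related names fell outside the set. HSPA12B, a relative of HSPA12A known from blood vessel endothelium, stood at 12.6, 6.66 and 2.43 RPKM in teratomas 1, 2 and 3, the reverse of the order of HSPA12A. The readthrough entry HSPB2-C11orf52 was at 3.70, 2.44 and 0.841 RPKM, above HSPB2 itself in each library. HSPA14 and DNAJC19, left out for their non-coding best entry, were at 5.85, 6.35 and 7.02 RPKM and at 4.72, 4.34 and 4.38 RPKM. DNAJC5B, a relative of DNAJC5, had 0 reads in all 3 libraries, and DNAJC5G had 0, 14 and 5 reads.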
